A study of Mus musculus with 18 samples.

Results

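The Ly49 receptors are a family of cell surface lectin-like proteins encoded by the Klra genes, which lie side by side in the natural killer (NK) gene complex. The 10 genes described here were those rows of the gene table whose symbol was Klra1, Klra3, Klra4, Klra5, Klra6, Klra7, Klra8, Klra9, Klra13-ps or Klra17, out of 48440 gene identifiers. The set was chosen by measured values: Klra13-ps had the smallest p of all genes in the comparison of treated with untreated CD3+CD8- cells, so that comparison is given below as values only, with no test. The 4 other rows named Klra (Klra2, Klra10, Klra11-ps and Klra14-ps) were not part of the set.

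RNA was sequenced from CD45+ immune cells of the liver of wild-type C57BL/6J mice (7 weeks old when purchased), in which hydrodynamic tail vein injection of Ras and Myc oncogenes had raised primary liver tumours. All 6 groups shared this tumour model and strain, and each held 3 libraries, 18 in all. The sorted fractions were named CD3+CD8+, CD3+CD8- and CD3-CD8- cells. Each came from untreated mice or from mice injected intraperitoneally with poly(I:C), which mimics viral double-stranded RNA, at 4 mg/kg, and with anti-PD-L1 antibody at 200 µg, 6 doses in all with a day between. Anti-VEGF-A appears in the shared dosing protocol, but not among the agents in these samples' own treatment labels. The labels do not say that the replicates came from separate animals, so each p-value measures the spread between these samples, which may be technical.

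Ly49 proteins sit on NK cells, on some T cells with NK features and, for a few members, on other leukocytes, and most of them bind MHC class I molecules. Inhibitory members (Klra1, Klra3, Klra5, Klra6, Klra7 and Klra9, which encode Ly49A, C, E, F, G and I) carry a tyrosine motif near the start of the protein, the ITIM, that recruits phosphatases such as the product of Ptpn6. Activating members (Klra4, which encodes Ly49D, and Klra8, which encodes Ly49H, the receptor for a mouse cytomegalovirus protein) instead pair with the adaptor encoded by Tyrobp, which signals through Syk and Zap70. Klra17 encodes Ly49Q, an inhibitory member known from plasmacytoid dendritic cells and myeloid cells, and Klra13-ps is annotated as a pseudogene.

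The start of the coding sequence shows the split between these classes, and for that reason the first 60 coding bases of the 9 protein-coding members are printed here. They were read from the GENCODE vM21 transcripts (GRCm38), 5′ to 3′, and capitals mark codons 6 to 11, where the inhibitory motif lies, counted from the start codon.
Klra4: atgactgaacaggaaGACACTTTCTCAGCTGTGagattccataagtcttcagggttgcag
Klra8: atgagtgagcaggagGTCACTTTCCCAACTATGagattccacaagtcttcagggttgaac
Klra1: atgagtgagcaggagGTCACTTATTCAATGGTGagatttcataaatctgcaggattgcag
Klra3: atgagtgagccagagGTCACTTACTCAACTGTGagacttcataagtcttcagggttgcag
Klra5: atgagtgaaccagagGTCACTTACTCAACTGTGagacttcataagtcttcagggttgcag
Klra6: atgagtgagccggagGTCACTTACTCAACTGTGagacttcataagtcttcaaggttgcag
Klra7: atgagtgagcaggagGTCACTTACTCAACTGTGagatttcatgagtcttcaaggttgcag
Klra9: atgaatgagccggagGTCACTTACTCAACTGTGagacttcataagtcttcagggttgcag
Klra17: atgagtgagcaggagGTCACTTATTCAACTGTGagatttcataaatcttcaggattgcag
Codon 8 was TTC, a phenylalanine codon, in Klra4 and Klra8, and TAT or TAC, both tyrosine codons, in the other 7. Klra13-ps has no annotated coding sequence. The coding sequences ran from 786 bases in Klra1 to 840 bases in Klra7.

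All 10 genes lie on the minus strand of chromosome 6, between 129831154 (where Klra17 ends) and 130386874 (where Klra1 begins). These positions are the authors', with starts moved by 1 base to count from 1, and equal those of GENCODE vM21 on GRCm38 for every member. Klra4 (ENSMUSG00000079852.4) spans 130043731 to 130067271 and Klra8 (ENSMUSG00000089727.2) spans 130115226 to 130129898. Klra13-ps (ENSMUSG00000030178.15), a transcribed unprocessed pseudogene, spans 130290878 to 130306428. Klra17 (ENSMUSG00000014543.14) spans 129831154 to 129876672.

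The members resemble each other closely enough that short reads can be hard to place. Of all 50-base windows of the Klra8 transcript, 33.1% also occurred in another gene, 20.4% in Klra14-ps, a neighbouring pseudogene. The same share was 32.4% for Klra9, 21.5% for Klra3, 14.7% for Klra7 and 13.1% for Klra13-ps, the last pair sharing most with each other. It was at most 4.68% for Klra1, Klra4, Klra5 and Klra6, and 0 for Klra17. At 100 bases, Klra8 shared 14.4% of windows and no other member more than 4.41%. How reads that fit several genes were treated is not given in the sources used here, so the levels of Klra8, Klra9, Klra3, Klra7 and Klra13-ps carry that uncertainty. Klra14-ps itself reached 21.97 CPM (counts scaled to library size with TMM factors), in untreated CD3-CD8- replicate 1.

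**Figure D1:**
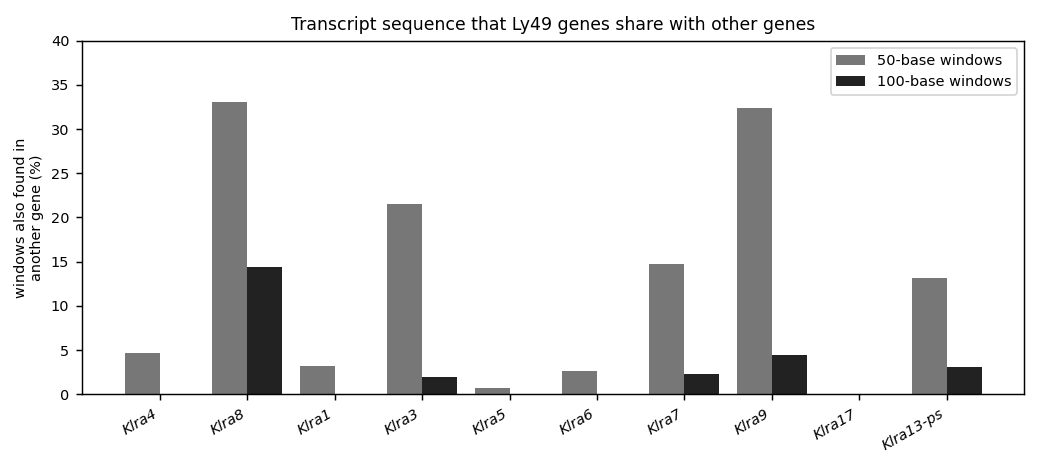
Share of all windows of each member's transcript (vertical axis, %) that also occurred in the transcripts of another gene, for windows of 50 bases (grey) and 100 bases (black). Klra8 and Klra9 stood highest at 50 bases, with 33.1% and 32.4%, and Klra17 shared none.

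Library totals ran from 1829155 to 28233682 counts. In 3 libraries (untreated CD3+CD8+ replicates 1 and 18, and treated CD3+CD8- replicate 2) 79.7% to 87.0% of counts lay on 5 ribosomal loci, against 0.35% to 2.26% in the other 15, so few counts were left for other genes. Where a library had no count of a gene, a level of 3 counts was still possible by counting error alone, which is 0.0723 to 5.57 CPM depending on the library. Untreated CD3+CD8- replicate 6 went against its label, with 641 CPM of Cd8a where the other 2 libraries of its group had 4.65 and 6.82 CPM. The CD3-CD8- libraries also held Cd3e (52.0 to 311 CPM) and Cd8a (60.8 to 985 CPM), which their labels exclude.

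The activating receptor genes were highest in CD3-CD8- cells, the fraction that should hold NK cells. Klra4 stood at 80.3, 57.1 and 72.9 CPM in the untreated CD3-CD8- libraries (replicates 1, 5 and 18), and at 19.2, 71.9 and 28.6 CPM in the treated ones (2, 11 and 19). In CD3+CD8- cells it was 23.2, 48.3 and 2.43 CPM in untreated replicates 5, 18 and 6, and 5.04, 5.02 and 3.24 CPM in the treated libraries (11, 2 and 19). In CD3+CD8+ cells it was 6.30, 0.418 and 33.4 CPM in untreated replicates 1, 5 and 18, and 2.17, 1.21 and 0.332 CPM in treated replicates 11, 2 and 19. The untreated CD3-CD8- libraries were all above every CD3+ library, and the treated CD3+CD8+ libraries, on 7 to 13 counts each, were all below every treated CD3+CD8- library. Untreated CD3+CD8+ replicate 18, a ribosome-rich library with 18 counts of Klra4, stood apart from the others of its group.

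Klra8 followed the same order. It stood at 69.7, 51.9 and 63.6 CPM in the untreated CD3-CD8- libraries (replicates 1, 5 and 18), and at 24.95, 75.7 and 31.6 CPM in the treated ones (2, 11 and 19). In CD3+CD8- cells it was 38.5, 44.1 and 3.24 CPM in untreated replicates 5, 18 and 6, and 6.47, 6.57 and 4.84 CPM in the treated libraries (11, 2 and 19). In CD3+CD8+ cells it was 2.52, 1.25 and 35.3 CPM in untreated replicates 1, 5 and 18, and 2.34, 0.693 and 0.332 CPM in treated replicates 11, 2 and 19. For Klra8, as for Klra4, untreated CD3+CD8- replicate 6 was the low library of its group and untreated CD3+CD8+ replicate 18 the high one.

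**Figure D2:**
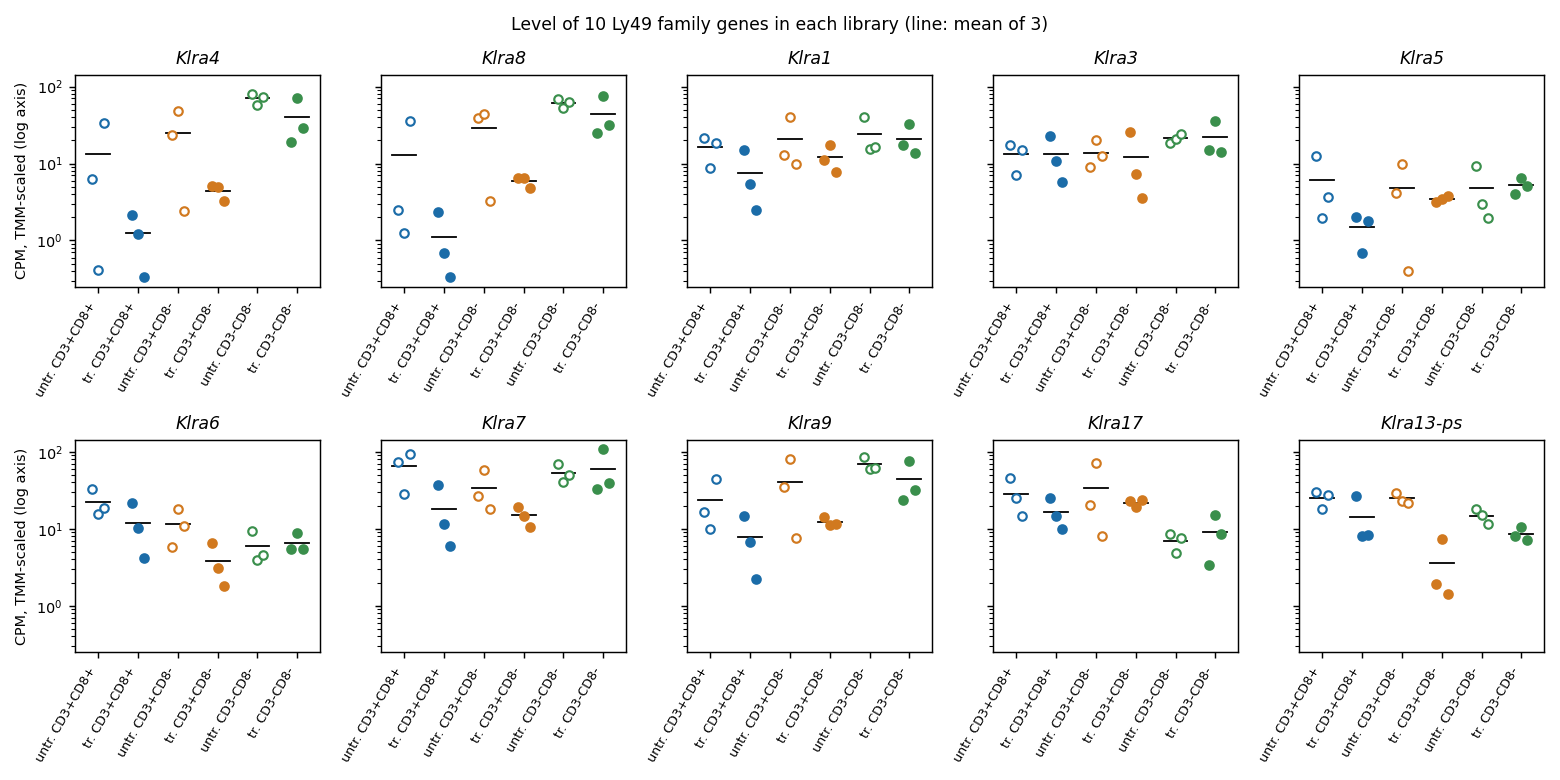
Level of each of the 10 genes in each of the 18 libraries (points, CPM after TMM scaling, log axis), by sorted fraction (colour) and treatment (open, untreated; filled, treated); lines are means of 3 libraries. Klra4 and Klra8 were highest in CD3-CD8- cells, while Klra6, Klra17 and Klra13-ps had their lowest untreated mean there.

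Among the inhibitory members, Klra7 and Klra9 were the most abundant in counts, and Klra5 the least. Klra7 averaged 64.8 ± 32.9 CPM (SD, n = 3) in untreated CD3+CD8+ cells and 53.4 ± 14.6 CPM in untreated CD3-CD8- cells. Its libraries in untreated CD3+CD8+ replicates 1, 5 and 18 stood at 73.1, 28.5 and 92.8 CPM, and those in treated replicates 11, 2 and 19 at 37.1, 11.4 and 6.06 CPM. The treated and untreated CD3+CD8+ libraries of Klra7 overlapped, through treated replicate 11 and untreated replicate 5.

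Klra9 was ordered more like the activating genes. It was 86.3, 59.1 and 62.4 CPM in the untreated CD3-CD8- libraries (replicates 1, 5 and 18), and 16.4, 10.03 and 44.6 CPM in the CD3+CD8+ libraries of the same numbers. In treated mice it was 23.6, 75.7 and 32.0 CPM in CD3-CD8- replicates 2, 11 and 19, against 6.76, 14.9 and 2.22 CPM in CD3+CD8+ replicates 2, 11 and 19. CD3-CD8- and CD3+CD8+ libraries of Klra9 did not overlap at either treatment. The share of all genes without overlap was not counted, here or for the other members. Klra1 ran from 2.47 to 40.7 CPM and Klra3 from 3.56 to 36.2 CPM over the 18 libraries, with overlapping fractions. Klra5 ran from 0.405 to 12.6 CPM.

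Klra6 went the other way. It stood at 32.8, 15.6 and 18.6 CPM in untreated CD3+CD8+ replicates 1, 5 and 18, and at 9.42, 3.88 and 4.50 CPM in the CD3-CD8- libraries of the same numbers. Untreated CD3+CD8- libraries (5.75 to 18.1 CPM) overlapped both. In treated mice Klra6 was 21.4, 10.2 and 4.14 CPM in CD3+CD8+ replicates 11, 2 and 19, which overlapped the CD3-CD8- range of 5.40 to 8.94 CPM. 

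Klra17, the member known from plasmacytoid dendritic cells, was also higher in the CD3+ fractions of untreated mice. It stood at 45.4, 25.2 and 14.9 CPM in CD3+CD8+ replicates 1, 5 and 18, at 20.5, 72.4 and 8.10 CPM in CD3+CD8- replicates 5, 18 and 6, and at 8.46, 4.89 and 7.56 CPM in CD3-CD8- replicates 1, 5 and 18. Only CD3+CD8- replicate 6 fell inside the CD3-CD8- range. In treated mice it was 25.4, 14.5 and 9.86 CPM in CD3+CD8+ replicates 11, 2 and 19 and 23.0, 18.9 and 23.6 CPM in CD3+CD8- replicates 11, 2 and 19. Treated CD3-CD8- replicates 2, 11 and 19 had 3.35, 15.1 and 8.58 CPM, replicate 11 overlapping the CD3+CD8+ libraries.

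Klra13-ps is given next in the comparison that drew attention to it. It stood at 29.6, 23.1 and 21.9 CPM in untreated CD3+CD8- replicates 5, 18 and 6, and at 1.92, 7.34 and 1.44 CPM in treated replicates 11, 2 and 19, on 8 to 27 counts. The groups did not overlap. Treated replicate 2, the highest treated library, was the ribosome-rich one. Klra4, Klra8 and Klra9 averaged 24.6 ± 23.0, 28.6 ± 22.1 and 41.0 ± 36.5 CPM in untreated and 4.43 ± 1.03, 5.96 ± 0.974 and 12.4 ± 1.74 CPM in treated CD3+CD8- cells, with overlap through the library labelled untreated CD3+CD8- replicate 6. No test is attached to these values.

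FPKM, the authors' value per length of gene, allows the members to be compared with each other, and the make-up of the family differed between fractions. In untreated CD3-CD8- cells Klra9 made up 21.97 ± 1.42% (SD, n = 3) of the summed FPKM of the 10 genes, Klra4 18.9 ± 1.32%, Klra7 18.6 ± 1.42% and Klra8 17.6 ± 1.84%. The shares of these 4 lay within about a standard deviation of the next in order, except between Klra9 and Klra4. In untreated CD3+CD8+ cells Klra7 led with 29.0 ± 4.35% of the summed FPKM, ahead of Klra17 with 15.5 ± 8.94% and Klra13-ps with 14.2 ± 5.07%, which overlapped each other. Replicates 1 and 18 of this group are ribosome-rich, with 58 and 50 counts of Klra7, 36 and 8 of Klra17, and 24 and 15 of Klra13-ps. In treated CD3+CD8+ cells Klra4 and Klra8 made up 0.890 ± 0.426% and 0.811 ± 0.250%, while Klra17 held 20.2 ± 4.97%, Klra13-ps 18.8 ± 5.15% and Klra7 18.6 ± 4.02%. In treated CD3+CD8- cells Klra17 had the highest share of summed FPKM, 26.6 ± 6.44%, and in treated CD3-CD8- cells Klra7, 25.4 ± 2.42%. These shares describe the libraries and were not tested.

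**Figure D3:**
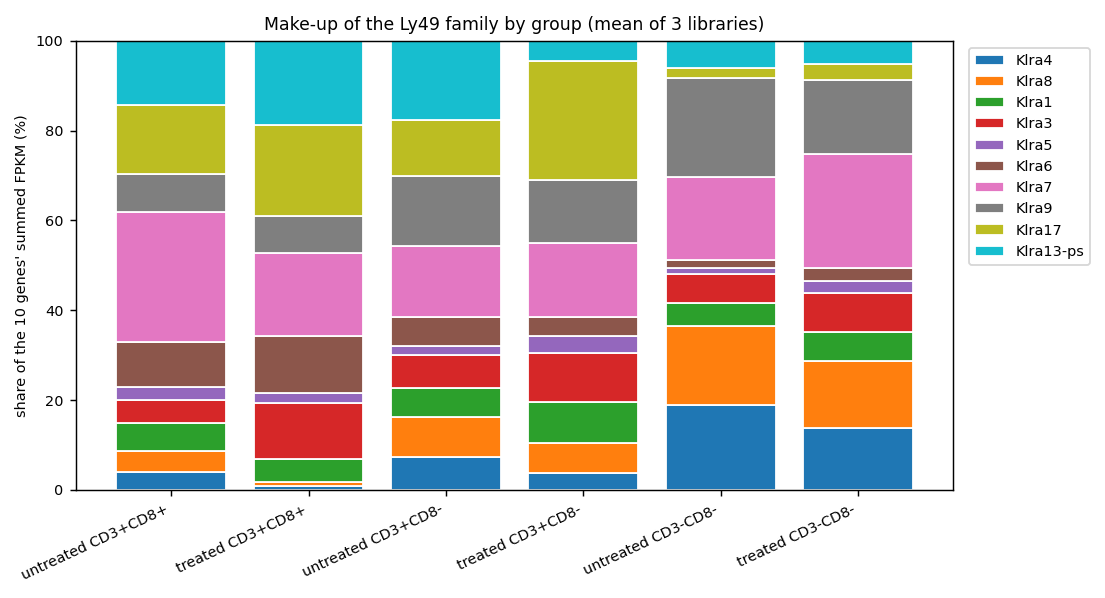
Mean share of each gene in the summed FPKM of the 10 genes (vertical axis, %), for the 6 groups (bars; mean of 3 libraries). Klra4 and Klra8 held 18.9% and 17.6% in untreated CD3-CD8- cells, and 0.890% and 0.811% in treated CD3+CD8+ cells. The bars of untreated CD3+CD8+ and treated CD3+CD8- cells include ribosome-rich libraries with few counts.

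In treated mice, both activating receptor genes were higher in CD3-CD8- than in CD3+CD8+ cells, and they were the members that passed the test. Klra8 averaged 44.1 ± 27.6 against 1.12 ± 1.07 CPM (SD, n = 3), with a fitted log2 fold change of 5.51 (SE 1.10; edgeR quasi-likelihood test, Benjamini-Hochberg adjusted p = 0.00794). Klra4 averaged 39.9 ± 28.1 against 1.24 ± 0.919 CPM, with a log2 fold change of 5.22 (SE 1.17; edgeR adjusted p = 0.0151). Over all 13181 genes tested, 4.94% passed in this comparison, 4.24% as higher, beside 2 of the 10 members, and 0.698% as lower, beside none. DESeq2 called Klra9 as well, beside 917 of 13181 genes. The median log2 fold change was 1.62 over the members and -0.04 over all genes. In bulk libraries such as these, fewer cells of a type and less RNA per cell cannot be told apart.

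Ncr1, which encodes an NK cell receptor, and Klrb1c, which encodes NK1.1, moved with these genes. Ncr1 was 48.6 to 148.8 CPM in treated CD3-CD8- libraries and 0.346 to 2.84 CPM in treated CD3+CD8+ libraries, and Klrb1c was 63.8 to 167.5 and 7.28 to 18.2 CPM. All 13 NK cell markers found by symbol had counts in every library of both groups, and their summed level was 4101 to 5260 CPM against 2848 to 4462 CPM, ranges that overlapped. Of these markers, 4 were called higher and none lower in CD3-CD8- cells. Of the 13, 9 had positive values, with a median of 0.47 against -0.04 over all genes. Eomes went the other way without being called, with 69.1 to 100 CPM in treated CD3-CD8- and 133.3 to 136.7 CPM in treated CD3+CD8+ libraries. The part of NK cell number in the difference of Klra4 and Klra8 was not tested.

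Other members joined these when the replicate number was kept as a block. The sources do not explain the number, and these libraries were taken as paired by low correlations (r = 0.32, 0.40 and 0.26). With the block, 6 members were higher in treated CD3-CD8- than in CD3+CD8+ cells, and none was lower, beside 6.3% of all genes higher and 1.37% lower, 7.67% in all. They were Klra8 (log2 fold change 5.55, SE 0.77; edgeR adjusted p = 0.00104), Klra4 (5.22, SE 0.81; 0.00168), Klra9 (2.61, SE 0.46; 0.00306) and Klra7 (1.89, SE 0.34; 0.00339), with Klra1 (1.70) and Klra5 (1.77) at adjusted p of 0.0196 and 0.0198. The inhibitory members Klra3 (0.85, SE 0.32) and Klra6 (-0.56, SE 0.35), Klra17 (-0.98, SE 0.43) and Klra13-ps (-0.61, SE 0.44) did not pass. Without the block, the calls of Klra4 and Klra8 were both lost when treated CD3+CD8+ replicate 2 was left out (edgeR adjusted p = 0.0785 and 0.0557). That of Klra4 was also lost without treated CD3+CD8+ replicate 19 (0.0783) or treated CD3-CD8- replicate 11 (0.0526). Without treated CD3+CD8+ replicate 11, 4 members passed, Klra4, Klra8, Klra7 (2.87) and Klra9 (3.44), beside 408 of 14137 genes. Without the 3 ribosome-rich libraries and untreated CD3+CD8- replicate 6, Klra9 had 2.54, in a fit that leaves a single untreated CD3+CD8+ library.

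In untreated mice the same comparison gave no member past the test without the block and 5 with it, in both directions. With the block, the activating genes Klra4 (log2 fold change 3.61, SE 0.84; edgeR adjusted p = 0.0192) and Klra8 (3.31, SE 0.78; 0.0206) and the inhibitory gene Klra9 (1.87, SE 0.48; 0.0273) were higher in CD3-CD8- cells. Klra6 (-1.98, SE 0.37; 0.00783) and Klra17 (-2.15, SE 0.46; 0.0141) were lower there. By limma on log2(FPKM + 1) both turned, to 0.12 for Klra6 and 0.02 for Klra17. The background was 6.93% of genes higher and 4.74% lower with the block, 11.7% in all. Without it, 2.31% of genes were higher and 2.25% lower, 4.57% in all. At an unadjusted p under 0.05 the same test without the block counted 5 members and 23% of all genes. DESeq2 called 2 members, Klra6 and Klra17, beside 1191 of 13181 genes.

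A single CD3+CD8+ library weighed on the activating genes in untreated mice. Without untreated CD3+CD8+ replicate 18, the log2 fold change of Klra4 went from 2.96 (SE 1.15) to 5.77 and that of Klra8 from 2.82 (SE 1.07) to 5.45. Both then passed (edgeR adjusted p = 0.0191 and 0.00805), beside 917 of 14151 genes, against 602 of 13181 with that library kept. That library had 102.1 CPM of Ncr1 and 168.9 CPM of Klrb1c, where the other 2 of its group had 21.4 and 1.04 CPM, and 41.6 and 24.1 CPM. In this group the summed B cell markers ran from 33.3 to 1734 CPM. The part of these cells in the values was not tested. Without the 3 ribosome-rich libraries the values were 7.39 for Klra4 and 5.64 for Klra8, resting on 1 CD3+CD8+ library that is assumed to vary like the other groups.

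**Figure D4:**
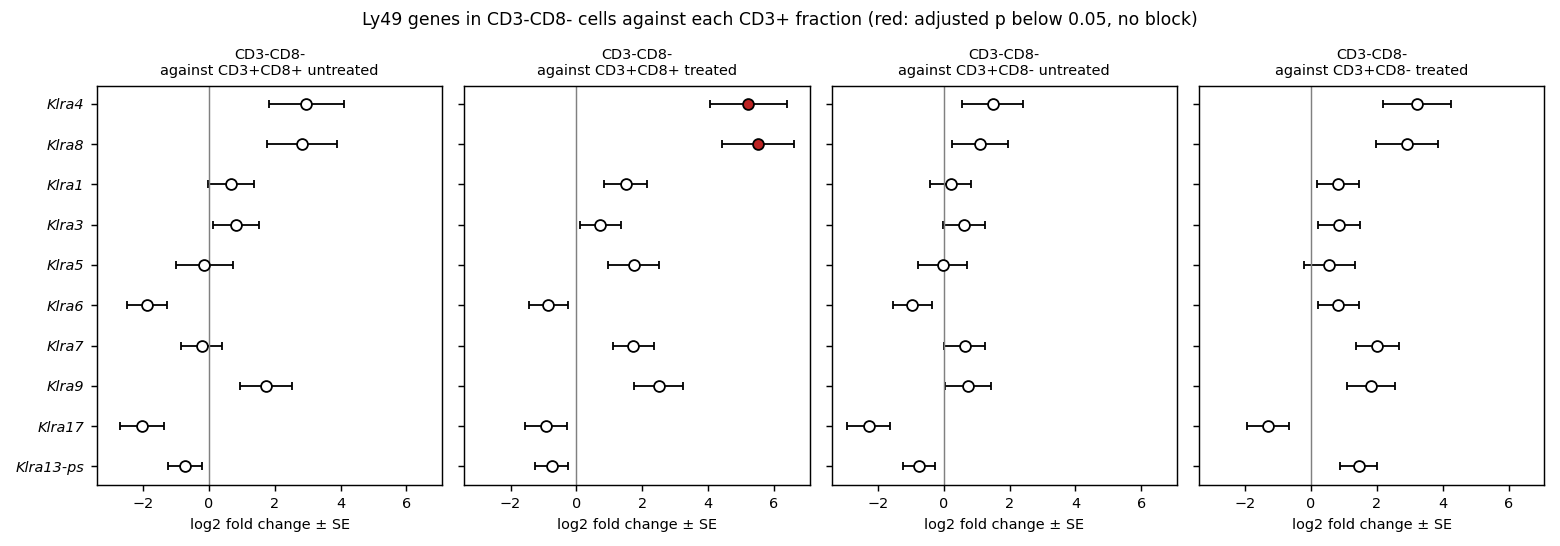
Log2 fold change of each gene (points; bars, SE) in CD3-CD8- cells against CD3+CD8+ cells and against CD3+CD8- cells, in untreated and treated mice, from edgeR without the replicate block; red points had an adjusted p below 0.05. The red points are Klra4 and Klra8 in treated mice, at 5.22 and 5.51. The points of Klra13-ps against treated and untreated CD3+CD8- cells rest on the values by which it was singled out.

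Against CD3+CD8- cells, the activating genes had fold changes in the same direction and of lower value, and whether these differ from those against CD3+CD8+ cells was not tested. In treated mice Klra4 had a log2 fold change of 3.21 (SE 1.04) and Klra8 of 2.90 (SE 0.94) in CD3-CD8- over CD3+CD8- cells, with adjusted p of 0.141 for each (edgeR). Klra7 had 2.01 (SE 0.65; edgeR adjusted p = 0.137). No member passed without the block, where 1.23% of all genes did (0.652% higher and 0.577% lower). Klra4, Klra7, Klra8 and Klra9 had an unadjusted p under 0.05, as did 13.7% of genes. Klra13-ps is left out here, because its CD3+CD8- values, treated and untreated, are those by which it was singled out. DESeq2 called Klra7 and Klra8, beside 616 of 13181 genes. With the block, which paired these libraries too, Klra4 (3.02, SE 0.71; edgeR adjusted p = 0.0307), Klra8 (2.73, SE 0.65; 0.0323) and Klra7 (1.84, SE 0.34; 0.0122) passed as higher, beside 1.87% of all genes higher and 3% lower, 4.86% in all. The summed neutrophil markers were 11980 to 33160 CPM in treated CD3+CD8- and 602.5 to 20690 CPM in treated CD3-CD8- libraries, and their part in these differences was not tested.

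In untreated mice Klra17 came nearest to the threshold among the members in this comparison. Its log2 fold change was -2.28 (SE 0.65; edgeR adjusted p = 0.0703), that is, lower in CD3-CD8- cells. With Klra13-ps left out here too, no member passed, while 3.16% of all genes did (1.46% higher and 1.71% lower). Only Klra17 had an unadjusted p under 0.05, as did 15.3% of genes, and DESeq2 called it alone among the members, beside 754 of 13181 genes. Without untreated CD3+CD8- replicate 6, the library whose Cd8a went against its label, the value was -2.70 and passed (edgeR adjusted p = 0.0219), beside 554 of 14068 genes. Without untreated CD3+CD8- replicate 18, the library with the highest Klra17, it was -1.07 (edgeR adjusted p = 0.501). Klra4 and Klra8 had 1.49 (95% interval -0.33 to 3.31) and 1.09 (-0.59 to 2.76).

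Between the 2 CD3+ fractions, Klra13-ps is described with no test, because its CD3+CD8- values, treated and untreated, are those by which it was singled out. It stood at 26.5, 7.97 and 8.42 CPM in treated CD3+CD8+ replicates 11, 2 and 19, and at 1.92, 7.34 and 1.44 CPM in the CD3+CD8- libraries of the same numbers. Replicate 2, whose CD3+CD8- library is ribosome-rich, had nearly the same level in both. The means were 14.3 ± 10.6 and 3.56 ± 3.28 CPM (SD, n = 3). None of the other members passed in treated mice, where 5.96% of all genes did, 0.516% as higher and 5.44% as lower. Klra6 had a log2 fold change of 1.69 (SE 0.63; edgeR adjusted p = 0.164) in CD3+CD8+ over CD3+CD8- cells, and Klra8 of -2.61 (SE 1.08; 0.238). Without the 3 ribosome-rich libraries and untreated CD3+CD8- replicate 6, Klra8 had the same value, in a fit that leaves a single untreated CD3+CD8+ library. In untreated mice no other member and 1.58% of genes (0.182% higher and 1.4% lower) passed the edgeR test. No other member had an unadjusted p under 0.05, and DESeq2 called none. Klra8 was called there without untreated CD3+CD8+ replicate 18, beside 314 of 14151 genes.

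Treatment was tested in the other 2 fractions, and in CD3-CD8- cells Klra13-ps was also lower in treated mice. It stood at 18.01, 14.9 and 11.6 CPM in untreated replicates 1, 5 and 18, and at 8.03, 10.5 and 7.08 CPM in treated replicates 2, 11 and 19, with no overlap. The log2 fold change was -0.85 (SE 0.22, n = 3; edgeR adjusted p = 0.0293). Of all 13781 genes tested here, 25.6% passed, 10.2% as higher and 15.3% as lower, so 1 of 10 members is no more than the background. The call was lost without untreated replicate 1 (edgeR adjusted p = 0.0938) or 5 (0.114), and without treated replicate 2 (0.105) or 19 (0.103). It was also lost with no filter on low counts (0.0863), by limma on log2(FPKM + 1) (0.118) and with all 18 libraries in 1 fit (0.347). With no filter, Klra4 was called instead, beside 3381 of 34114 genes. Treated replicate 11 carried 7501 CPM of S100a8, a neutrophil gene, against 183.5 and 562.5 CPM in the others. Without that library 4 members passed, Klra13-ps, Klra4, Klra8 and Klra9, beside 3183 of 14759 genes. The part of neutrophils in this was not tested.

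The other members showed no change in treated CD3-CD8- cells that passed the test. Klra4 had -0.90 (95% interval -1.74 to -0.05; edgeR adjusted p = 0.16), Klra9 -0.73 (-1.50 to 0.03) and Klra8 -0.56 (-1.30 to 0.17). Klra7, Klra3, Klra5 and Klra6 lay between -0.04 and 0.10, with the widest interval for Klra5 (-0.98 to 1.14). Of 13 NK cell markers tested in the same comparison, Eomes (1.38, SE 0.33; edgeR adjusted p = 0.0229) and Gzma (1.77, SE 0.26; 0.00909) rose, and Klrb1c (-1.31, SE 0.36; 0.0347) and Itga2 (-0.75, SE 0.20; 0.0337) fell. Of the 13, 4 had positive values, with a median of -0.39 against -0.06 over all genes. The NK cell markers summed to 2307 to 3059 CPM in untreated and 4101 to 5260 CPM in treated libraries. Ncr1 went the other way, with 124.5 to 191.5 CPM in untreated and 48.6 to 148.8 CPM in treated libraries, which overlapped. Of 8 T cell markers 5 rose, and both CD8 T cell markers rose, with a median of 1.91. Cd8a was 60.8 to 287.9 CPM in untreated and 548.8 to 984.9 CPM in treated libraries of this fraction. The part of NK cells and of T cells in these values was not tested.

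In CD3+CD8+ cells no gene of 10654 tested passed (0%), and 8 of the 10 members could be tested. Klra4 and Klra8 were too low in most libraries for the filter, and their values stand above. Klra7 had a log2 fold change of -1.87 (SE 0.67; unadjusted p = 0.019, edgeR adjusted p = 0.685) and Klra5 of -1.82 (SE 0.81; 0.0489 and 0.845). These were the 2 members with an unadjusted p under 0.05, as were 5.86% of all genes, and DESeq2 called no member. Klra9 had -1.57 (95% interval -3.06 to -0.08) and Klra3 0.03 (SE 0.60). Without the ribosome-rich untreated replicates 1 and 18, which leaves 1 untreated library, Klra7 had -0.69 and Klra5 -0.37. Klra5 had -0.72 without untreated replicate 1 alone, and Klra7 had -2.88 without treated replicate 11. By limma on log2(FPKM + 1), Klra7 turned to 0.03 and Klra5 had -0.02. Of 13 NK cell markers tested, none was called and 4 had positive values, with a median of -0.55. Their summed level was 1148 to 1941 CPM in untreated and 2848 to 4462 CPM in treated libraries, and their part in these values was not tested.

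Whether treatment acted differently in CD3-CD8- and CD3+CD8+ cells was tested as an interaction, and no gene passed (0 of 13181, 0%; 515 with an unadjusted p under 0.05). Klra7 had the only unadjusted p under 0.05 among the members, with a difference of 1.95 (SE 0.89; unadjusted p = 0.0435, edgeR adjusted p = 0.844). It was 0.83 without the 3 ribosome-rich libraries, 3.02 without treated CD3+CD8+ replicate 11, 1.26 without treated CD3-CD8- replicate 11, and turned to -0.15 by limma on log2(FPKM + 1). DESeq2 called none of the members in this interaction.

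Separate patterns of likeness ran through the family over the 18 libraries, given here as Pearson correlations of log2 CPM with no test, since libraries of a group and of a replicate number may share sources. Klra4 and Klra8 had r = 0.97, and each had 0.95 and 0.94 with Klra9. Both also had 0.95 with Ncr1, where Klra9 had 0.87, Klra1 0.76 and Klra7 0.68. Klra6 had -0.16 with Ncr1, Klra17 -0.19 and Klra13-ps 0.10. Klra4, Klra8 and Klra9 thus followed Ncr1 across fractions and treatments.

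Klra17 followed other genes. Among 7943 genes, those with the most similar pattern were Rell1 (r = 0.92), Siglech (0.92) and Ccr9 (0.89), of which Siglech and Ccr9 encode surface receptors of plasmacytoid dendritic cells, then Gm21762 and Havcr1 (0.89 each). Siglech was 201.7 to 364.2 CPM in untreated CD3+CD8+ libraries, 46.2 to 419 CPM in untreated CD3+CD8- libraries and 26.8 to 40.9 CPM in untreated CD3-CD8- libraries. All 10 of the plasmacytoid markers found by symbol had counts in every untreated library, and summed to 685.2 to 1023 CPM, 243 to 1066 CPM and 330.1 to 348.4 CPM in the 3 fractions. Untreated CD3+CD8- replicate 18 and untreated CD3+CD8+ replicate 1 were the 2 highest libraries for both Siglech and Klra17, and the part of such cells in the levels of Klra17 was not tested.

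The nearest genes to Klra13-ps were Klra6 and Klrk1 (r = 0.70 each), Cmah (0.69), Adgrg5 (0.68) and Bcl2l11 (0.67), all weaker likenesses than those of Klra17. Klrk1 encodes NKG2D, an activating receptor of NK cells and CD8 T cells. For Klra7, the member with the highest mean level, they were Kynu and BC035044 (0.87 each), Snx5, Klra1 and 5430427O19Rik (0.85 each).

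**Figure D5:**
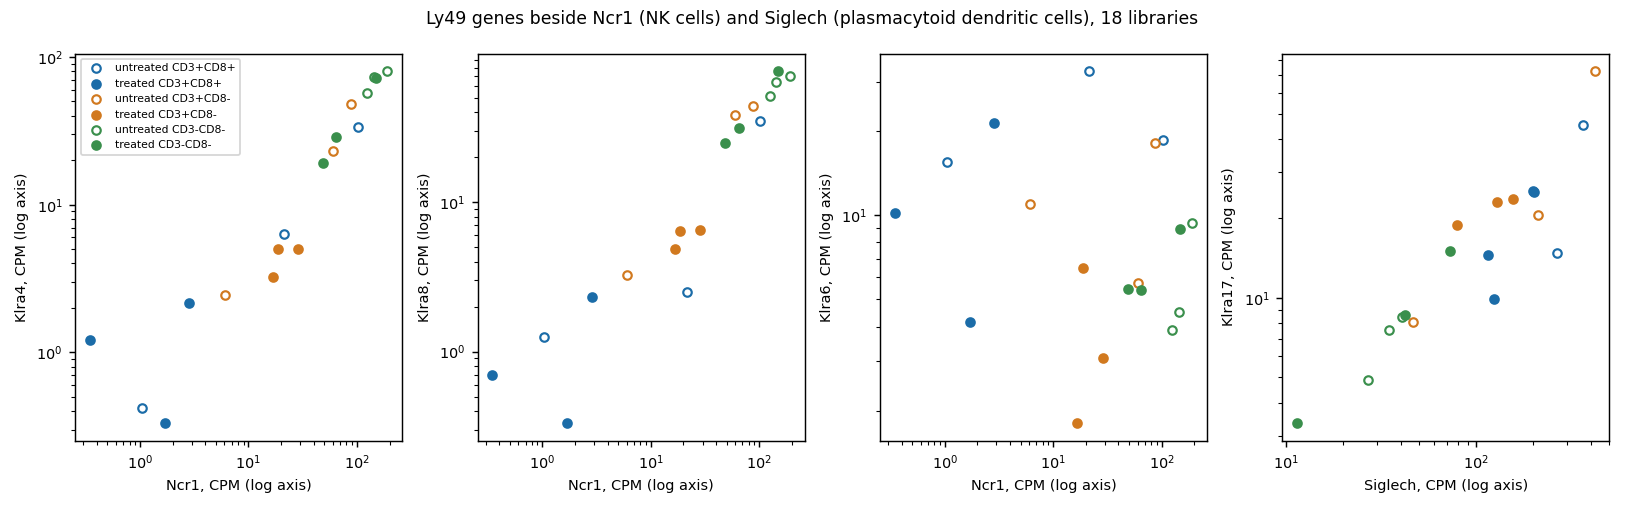
Level of Klra4, Klra8 and Klra6 against Ncr1, and of Klra17 against Siglech, in each of the 18 libraries (CPM, log axes; colour, fraction; open, untreated; filled, treated). Klra4 and Klra8 climbed with Ncr1 (r = 0.95 each over log2 CPM) and Klra17 with Siglech (0.92), while Klra6 showed no such relation to Ncr1 (-0.16).

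The genes around the receptors were read from lists of their roles. Of 12 adaptor and signalling genes, Tyrobp (2.22, SE 0.49; edgeR adjusted p = 0.0132), Syk (3.42, SE 0.59; 0.00359), Ptpn6 (edgeR adjusted p = 0.0238) and Plcg2 were higher in treated CD3-CD8- than in treated CD3+CD8+ cells and none was lower, with a list median of -0.03 against -0.04 over all genes. Of all genes, 4.24% were higher and 0.698% lower there. B cells and myeloid cells also express Syk, Ptpn6 and Plcg2, and all 9 B cell markers were higher in the same comparison. In treated against untreated CD3-CD8- cells, 2 of the 12 adaptor and signalling genes rose (Fyn and Lcp2) and 4 fell (Ptpn6, Syk, Inpp5d and Plcg2), with a median of -0.51 against -0.06, where 10.2% of all genes rose and 15.3% fell. Of the 9 B cell markers 7 fell there, and their part in this was not tested.

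The ligands of the inhibitory members showed no called change. None of 7 genes of MHC class I and its loading passed in treated against untreated CD3-CD8- cells, nor in CD3-CD8- against CD3+CD8+ cells at either treatment. B2m, the light chain of class I, averaged 4149 ± 494 CPM in treated and 2590 ± 804 CPM in untreated CD3-CD8- cells (edgeR adjusted p = 0.128). H2-K1 and H2-D1, the class I heavy chains, averaged 1670 ± 289 and 1060 ± 116 CPM in treated and 1618 ± 423 and 1487 ± 256 CPM in untreated CD3-CD8- cells.

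Of 15 other receptor genes of the NK gene complex, 6 were higher and none lower in treated CD3-CD8- than in treated CD3+CD8+ cells, all of them of the Klrb1 and Klri groups, with a list median of 1.12 against -0.04, where 4.24% of all genes were higher and 0.698% lower. Klrd1 and Klrk1, whose products are shared by NK cells and CD8 T cells, had 0.10 (SE 0.50) and 0.20 (SE 0.50) there. Klrb1c had 3.21 (SE 0.75; edgeR adjusted p = 0.0187). Of 11 transcription factors of NK cells, Tcf7, which encodes TCF-1, was the only gene called in that comparison, lower by log2 fold change -2.95 (SE 0.39; edgeR adjusted p = 0.00119). Tcf7 was also lower in untreated CD3-CD8- than in CD3+CD8+ cells (-2.18, SE 0.38; edgeR adjusted p = 0.00685). Of 6 genes known from Ly49-bearing CD8 T cells, Ly6c2 (-3.53, SE 0.50; edgeR adjusted p = 0.00225) and Ikzf2 (-2.28, SE 0.62; 0.0461), which encodes Helios, were lower in untreated CD3-CD8- than CD3+CD8+ cells. Of these 6 genes, 3 had positive values, with a list median of -0.03 against 0.01, where 2.25% of all genes were lower. Ly6c2 is also on the list of monocyte and macrophage markers. Klra6, which had -1.88 there, was called as lower with the block, and a link to these genes was not tested.

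RefSeq promoter windows on GRCm38.p6, from 250 bases before to 50 after a gene's start, matched 9 of the 10 members by symbol. Klra4 and Klra8, with r = 0.97, shared a run of 37 bases across the start, chosen for display after the values were seen. It is in capitals in the 2 windows, at chr6:130067222-130067521 for Klra4 and chr6:130129849-130130148 for Klra8, both minus strand.
Klra4: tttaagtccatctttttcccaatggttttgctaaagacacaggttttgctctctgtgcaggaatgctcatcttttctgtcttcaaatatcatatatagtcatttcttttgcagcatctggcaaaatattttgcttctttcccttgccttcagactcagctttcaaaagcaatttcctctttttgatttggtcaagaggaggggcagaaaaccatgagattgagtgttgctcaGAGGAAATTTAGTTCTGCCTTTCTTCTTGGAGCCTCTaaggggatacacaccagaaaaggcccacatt
Klra8: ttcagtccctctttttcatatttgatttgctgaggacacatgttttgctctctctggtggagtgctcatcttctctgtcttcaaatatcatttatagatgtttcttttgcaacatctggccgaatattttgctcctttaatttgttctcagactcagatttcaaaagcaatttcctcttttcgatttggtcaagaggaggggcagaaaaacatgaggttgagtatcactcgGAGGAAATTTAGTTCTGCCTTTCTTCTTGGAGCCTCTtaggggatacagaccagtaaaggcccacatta
The run began 18 bases upstream of the annotated start in Klra4 and 19 in Klra8. Of 32851 promoter windows of all genes, 3 held it (0.00913%). The window of Klra17 held most of the run unbroken, and its levels had r = -0.22 with Klra4 and -0.24 with Klra8.

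The windows of Klra3, Klra6 and Klra9 shared a longer run, of 51 bases. Levels of Klra3 had r = 0.64 with Klra9 and 0.43 with Klra6, and those of Klra6 and Klra9 had 0.12. The run is shown for Klra6 and Klra9 in capitals at chr6:130026905-130027204 and chr6:130193063-130193362, minus strand.
Klra6: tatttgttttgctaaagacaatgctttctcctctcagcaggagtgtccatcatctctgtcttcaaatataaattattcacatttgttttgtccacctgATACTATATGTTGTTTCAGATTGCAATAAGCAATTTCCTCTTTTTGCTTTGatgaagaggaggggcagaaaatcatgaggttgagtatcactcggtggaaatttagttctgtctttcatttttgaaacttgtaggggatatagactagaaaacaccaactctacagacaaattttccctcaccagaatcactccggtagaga
Klra9: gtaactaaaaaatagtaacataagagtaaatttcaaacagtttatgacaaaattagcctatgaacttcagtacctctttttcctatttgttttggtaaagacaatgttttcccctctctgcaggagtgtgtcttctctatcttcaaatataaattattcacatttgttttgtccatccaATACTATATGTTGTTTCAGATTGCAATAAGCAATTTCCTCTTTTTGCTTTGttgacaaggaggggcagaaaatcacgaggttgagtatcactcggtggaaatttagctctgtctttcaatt
This run began 152 bases upstream of the start in Klra6 and 71 in Klra9, and 4 of the 32851 windows held it (0.0122%).

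Core motifs of 4 factors were searched on both strands in the same windows. CTTTGA, a core of TCF/LEF sites, was in the windows of Klra6 and Klra7 and in 16% of all windows. TGTGGT, a core of RUNX sites, was in that of Klra1 and in 16.8% of all, and TCACACC, a T-box core, was also in that of Klra1 and in 3.98% of all. TTACGTAA, an NFIL3 site, was in none of the 9 and in 0.119% of all. The window of Klra5 lay 4426 bases from the gene's annotated start and that of Klra3 52 bases from it. A match describes letters in a window and does not show that a factor binds there.

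The 4 Klra genes outside the set differed widely in level. Klra2, which encodes Ly49B, reached 116.8 CPM in untreated CD3+CD8- replicate 18, the library that also had the highest Klra17. Klra10 reached 3.06 CPM and Klra11-ps 0.596 CPM.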

How the data were processed

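The authors deposited raw counts for each gene in each library and, in another file, FPKM with gene symbols and loci. HTSeq 0.13.5, Trim Galore 0.6.7, DESeq2 3.20 and Cufflinks 2.2.1 are listed, per the submitters' processing notes, with no roles; an aligner and a build are not given there. Of 40 library columns with counts, 18 were used and 22 were not, and 23 per-library columns of the FPKM table were not used. Symbols joined 48242 identifiers through the FPKM table and 147 through a reference list. Replicate 11 of treated CD3+CD8- cells takes its number from the library name, since its title has a repeated digit.

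Counts were tested in R 4.3.3 with edgeR 4.0.16 (filterByExpr, TMM scaling, quasi-likelihood F-test, two-sided) and Benjamini-Hochberg adjustment over all genes tested, with calls at an adjusted p below 0.05. Treatment was fitted on the 6 libraries of a fraction, and fractions and the interaction on all 18 libraries as 6 groups. Intervals are 95%. The scripts were tested on simulated data. CPM are TMM-scaled over 18 libraries. Genes named were all 10 members, the other Klra rows, the 3 most abundant genes of a list set beside a result and the 5 genes most like Klra7, Klra13-ps and Klra17 among those whose log2 CPM averaged 3 or more. Other genes named, such as Ncr1, Klrb1c, Syk, Tcf7, Siglech and S100a8, were chosen after their values were seen. The members and lists were chosen with earlier results of these data known. Alternatives were DESeq2 1.42.0, its size factors, no filter, limma 3.58.1 on log2(FPKM + 1) with mean FPKM of 1 or more, lane, all 18 libraries, the replicate block, and left-out libraries.

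The replicate numbers come from the library names, which do not say what they mark. Same-numbered libraries deviated together from their group means in CD3-CD8- and CD3+CD8+ cells (r = 0.15, 0.29 and 0.45 untreated; 0.32, 0.40 and 0.26 treated) and in treated CD3-CD8- and CD3+CD8- cells (0.17, 0.18 and 0.38). They were taken as paired there because r was positive for every number, however low, and blocked values stand beside those results. All treated libraries of replicate 11 were on lane 2 and all of replicate 19 on lane 3, while the other shared numbers had libraries on both lanes. The part of lane in these correlations was not tested. Libraries of different numbers were not compared in this way. The block was fitted over all 18 libraries, so it also draws on pairs that did not deviate together. These are CD3+CD8+ and CD3+CD8- cells of untreated replicate 5 (r = -0.04) and treated replicate 2 (-0.00).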

Additional observations from a re-analysis of the deposited data

How the results depend on the processing

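Counts of members called moved with several choices. Those for treated CD3+CD8+ against CD3+CD8- cells include Klra13-ps, which has no test in the text there. The count without the filter for treated CD3-CD8- against CD3+CD8- cells also includes it, through the same CD3+CD8- values. Without the filter on low counts, 3 members passed in treated against untreated CD3+CD8+ cells (Klra4, Klra7 and Klra8, with 380 of 35013 genes against 0). Between fractions, 39771 genes were then tested. In untreated mice 5 members passed in CD3-CD8- against CD3+CD8+ cells (1633 genes in all) and 2 in CD3-CD8- against CD3+CD8- cells (863). For untreated CD3+CD8+ against CD3+CD8- cells it was 1 (775 genes). In treated mice 6 passed in CD3-CD8- against CD3+CD8+ cells (1019 genes) and 6 in CD3-CD8- against CD3+CD8- cells (1072). For treated CD3+CD8+ against CD3+CD8- cells it was 4 (1294 genes), and for the interaction 2 (171 genes in all against 0). DESeq2, over 13181 genes, called 2 members in untreated CD3-CD8- against CD3+CD8+ cells (1191 genes in all). It called 1 for untreated CD3-CD8- against CD3+CD8- cells (754 genes) and 2 in the treated form of the latter (616). Limma on log2(FPKM + 1) called 0 members for treatment in CD3-CD8- cells (247 of 11813 genes). It called 3 when untreated CD3-CD8- and CD3+CD8+ cells were compared (998 of 11808 genes), and 0 for treated CD3+CD8+ against CD3+CD8- cells (100 genes). With all 18 libraries in 1 fit, 0 members were called for treatment in CD3-CD8- cells, and 76 genes against 3522. The cause was not tested.

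With the replicate block, over 13181 genes, CD3-CD8- against CD3+CD8+ gave 5 members untreated (1538 genes in all) and 6 treated (1011). CD3-CD8- against CD3+CD8- cells gave 1 untreated (1362 genes) and 3 treated (641). Treated CD3+CD8+ against CD3+CD8- cells gave 3 (1112 genes). For the last of these, and for the untreated one with CD3+CD8- cells, the numbers did not pair the libraries by the rule used: r was 0.49, -0.00 and 0.42 in the former, and the latter shared 2 numbers. No paired analysis was possible for treatment because treated and untreated libraries share no number.

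Leaving out each library in turn gave 0 to 4 members called for treatment in CD3-CD8- cells (239 to 3183 genes in all). In CD3-CD8- against CD3+CD8+ cells it gave 0 to 2 untreated (107 to 984 genes) and 0 to 4 treated (242 to 685). For untreated CD3-CD8- against CD3+CD8- cells it gave 0 to 1 (92 to 554 genes). In CD3+CD8+ against CD3+CD8- cells it gave 0 to 1 untreated (0 to 374 genes) and 0 to 1 treated (405 to 700). Where a group was left with 1 library, it was assumed to vary like the others. Without the 3 ribosome-rich libraries, Klra4 and Klra8 had 7.39 and 5.64 in untreated CD3-CD8- against CD3+CD8+ cells. Leaving out untreated CD3+CD8- replicate 6 too, a choice made after seeing the data, gave the same values there. Klra17 then had -2.62 in untreated CD3-CD8- against CD3+CD8- cells, and Klra4 and Klra8 had 3.32 and 2.99 in the treated form. These fits leave 1 untreated CD3+CD8+ library, so no calls are counted here.

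By FPKM, whose values for most members were low in the ribosome-rich libraries, directions turned for Klra7 with treatment in CD3+CD8+ cells (0.03), for Klra6 (0.12) and Klra17 (0.02) in untreated CD3-CD8- against CD3+CD8+ cells, and for Klra7 in the interaction (-0.15). The log2 ratio of mean levels in CD3-CD8- over CD3+ libraries went from 0.78 to 1.66 for Klra7 and from -0.54 to 0.09 for Klra13-ps. The member results followed were the 24 that were called or had an unadjusted p under 0.05 in the main fit, and most were not called there. Of their 319 alternative values, 243 kept direction and side of the threshold, 57 gained a call, 15 lost it and 4 turned. A kept value can thus be a result that stayed uncalled. The 319 include values of Klra13-ps in the treated comparisons with CD3+CD8- cells, where it has no test in the text. They also include the fits without the ribosome-rich libraries and untreated CD3+CD8- replicate 6, chosen after seeing the data. Depth limits Klra4, Klra5 and Klra8 in CD3+CD8+ cells, where they rest on 2 to 49 counts.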
